A study of Crocodylus porosus with 60 samples.

Results

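Tongue and heart both hold striated muscle, skeletal in the tongue and cardiac in the heart. Their small RNA was compared in hatchling saltwater crocodiles (Crocodylus porosus), over every listed miRNA with at least 100 RPM (the reads of a miRNA scaled to a common library total) in the tongue library or in either heart library. This rule took 115 of the 651 miRNA names in the deposited table, 91 of them named for a known family and 24 carrying only an N and a number. The tongue had 1 library, whose size class is not given. Heart had 2 libraries, 1 of a runt and 1 of a normal hatchling, as the column headers have it. Per the labels, runts measured 386.2 ± 23.6 mm (SD) at 359 days of age and normal hatchlings 740.2 ± 73.5 mm at 373 days, and all RNA came from flash-frozen tissue. The 3 libraries are matched by 12 deposited samples, 4 for each library name, but the table has 1 value for each name, so the spread within a name could not be seen. With 1 tongue library no test was made. Both heart values are given throughout. The gap between them holds size class, age and animal as well as technical spread.

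MicroRNAs are short RNAs that pair with messenger RNAs, mostly through the seed near their 5′ end, and lower the output of those messages. In vertebrates miR-1 and miR-133 are transcribed together in skeletal and cardiac muscle. The related miR-206 is known from skeletal muscle, and miR-208 and miR-499 lie within myosin heavy chain genes in mammals. No miRNA sequences were used here, so names and arm suffixes are as the table lists them.

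Depth, estimated from the worth of 1 read, was about 790000 reads in the tongue library, 3140000 in the heart of the runt and 870000 in the heart of the normal hatchling. The runt's heart was thus the deepest of the 3. A value of 0 still allows up to 3 reads, which is 3.797 RPM in tongue, 0.9547 RPM in the heart of the runt and 3.448 RPM in that of the normal hatchling. The 115 miRNAs held 99.6% of the listed RPM in tongue, 99.5% in the heart of the runt and 99.6% in that of the normal hatchling. Tongue reached 100 RPM for 96 of them, the heart of the runt for 94 and that of the normal hatchling for 83.

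For 58 of the 115 miRNAs all 3 libraries had at least 100 RPM and tongue lay within or near the range of the hearts. Tongue stood at least 4-fold outside that range for 21. A miRNA was counted as shared where it had at least 100 RPM in all 3 libraries and the tongue lay between 2-fold below the lower and 2-fold above the higher heart library. It was counted as higher in tongue where log2(RPM + 1) was at least 2, or 4-fold, above the higher heart library, and as lower where it was at least 2 below the lower one. Shared miRNAs numbered 58 (50.4%), those higher in tongue 13 and those lower 8, and 36 were intermediate. Over the 115 miRNAs the share higher in tongue was 11.3% and the share lower 6.96%, against 3.84% and 3.38% when all 651 names were counted whatever their level. Without the heart of the normal hatchling, 20 were higher and 15 lower in tongue, and without that of the runt 18 and 9. The 2 hearts, for comparison, were at least 4-fold apart from each other in 28.7% of the 115, with the runt higher in 24 and the normal hatchling higher in 9. The median distance on the log2(RPM + 1) scale, without its sign, was 1.33 between tongue and the heart of the runt, 0.95 between tongue and the heart of the normal hatchling, and 1.34 between the hearts. The middle of the 115 lay higher in the runt's heart, with a median signed difference, runt minus normal hatchling, of 0.82 on the log2(RPM + 1) scale. The runt's heart was the higher in 82 of the 115. Its listed total was nonetheless the lower, at 537762 RPM against 658192 RPM in the normal hatchling's heart. The median difference is thus no higher level of the whole library. The median signed difference between tongue and the heart mean was 0.14 on the log2(RPM + 1) scale. It was -0.25 when libraries were scaled by a trimmed mean of log ratios, so differences of this size carry no direction here.

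**Figure D1:**
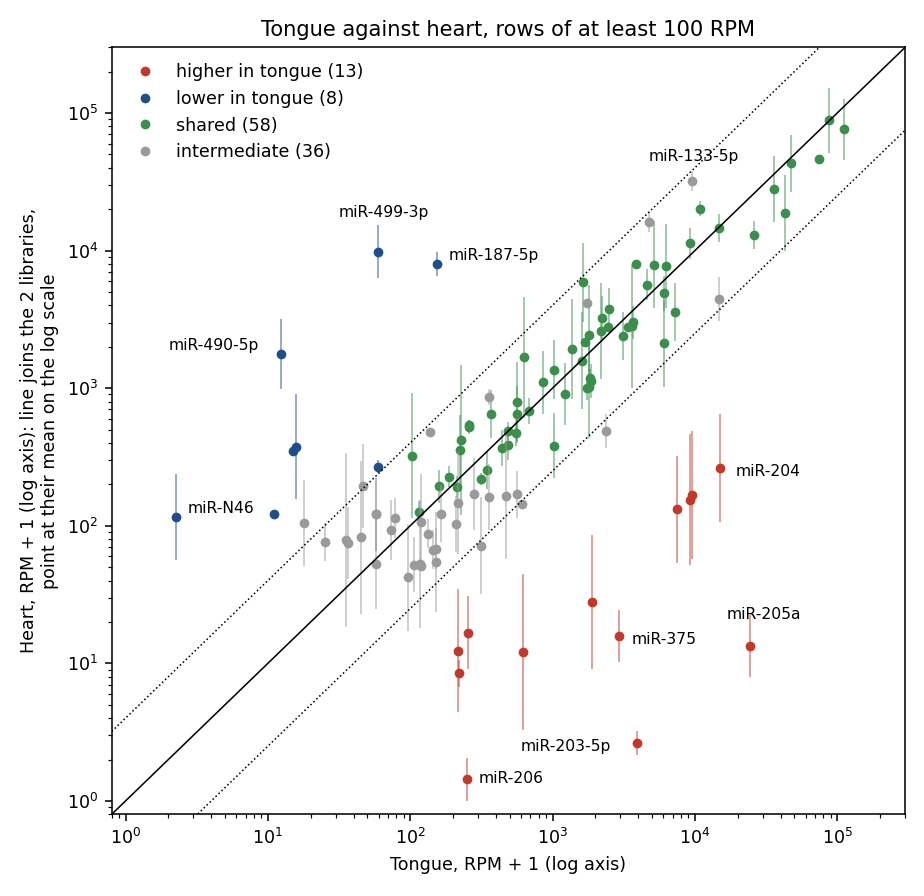
Levels of the 115 miRNAs in tongue (horizontal axis, RPM + 1, log scale) and in heart (vertical axis, RPM + 1, log scale), where a line joins the 2 heart libraries and the point is their mean on the log scale. The solid diagonal marks equal levels and the dotted ones 4-fold differences, and the 13 miRNAs higher in tongue and the 8 lower in tongue lie well away from the diagonal, with both heart values on the same side of it.

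The striated muscle miRNAs divided into some present in both organs and some nearly confined to 1 of them. Of the 8 listed names of these families, 7 reached 100 RPM, and of these 1 was higher in tongue, 2 were lower, 1 was shared and 3 were intermediate. Their median difference was -1.75 on the log2(RPM + 1) scale, against 0.14 over all 115. The table gives miR-133c-5p at a constant 0.5 of miR-133-5p in all 15 libraries used, which is how reads shared between names appear, so it is left out of the sums that follow. The 7 other names summed to 10616 RPM in tongue, 48516 RPM in the heart of the runt and 45501 RPM in that of the normal hatchling. That was 1.59% of the listed RPM in tongue, 9.02% in the heart of the runt and 6.91% in that of the normal hatchling. The next organ was stomach, with 6082 RPM, and tongue and heart thus held the most of these miRNAs among the 10 tissues. In such bulk samples, fewer muscle cells and less of a miRNA per cell cannot be told apart.

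The abundant member was miR-133-5p, with 9532 RPM in tongue, 27204 RPM in the heart of the runt and 37916 RPM in that of the normal hatchling. Both hearts were above tongue, by 2.85-fold and 3.98-fold, which is less than the 4-fold used to part the organs. All 3 were above every other tissue, of which stomach was highest with 5345 RPM. The name miR-133-3p, whose arm was not checked, had 137.3 RPM in tongue, 457.2 RPM in the heart of the runt and 501.4 RPM in that of the normal hatchling. Set against 1000 reads of miR-133-5p, it had 14.4 in tongue, 16.8 in the heart of the runt and 13.2 in that of the normal hatchling. Stomach had 12.4 and small intestine 12.9, so a ratio of this size was not limited to tongue and heart.

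The partner of miR-133, miR-1-1-5p, had 626.1 RPM in tongue (exact 95% Poisson interval 572.5 to 684.2), 4626 RPM in the heart of the runt and 609.5 RPM in that of the normal hatchling (558.4 to 663.3). Tongue and the normal heart overlapped within counting error, while the hearts differed from each other by more than tongue differed from the normal one. Its near relative miR-1b-5p had 14.8 RPM in tongue (about 12 reads), 903.3 RPM in the heart of the runt and 155.5 RPM in that of the normal hatchling. Tongue was below both hearts for miR-1b-5p, by 10.5-fold against the nearer (interval of the ratio 5.66 to 20.3). Small intestine with 465.1 RPM and stomach with 400.7 RPM also exceeded tongue, so this name did not follow striated muscle over the tissues.

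The organs were told apart by miR-206 and miR-499-3p, in opposite directions. miR-206 had 248.1 RPM in tongue (exact 95% Poisson interval 214.6 to 285.3), 1.06 RPM in the heart of the runt (about 3 reads) and 0 in that of the normal hatchling. Tongue exceeded the heart of the runt 234-fold, with a counting interval of 87.6 to 1271. The tongue value was the highest of the 10 tissues, but 1 of the 2 testis libraries of runts also had 157.8 RPM, and cloaca had 23.7 RPM. The other 3 testis libraries had 2.55 to 8.42 RPM. That testis library stood out for the sum of the list, with 2510 RPM over the 7 names against 67.9 to 492.5 RPM in the other 3. Whether it holds anything beside testis was not tested. miR-499-3p had 58.2 RPM in tongue (46 reads), 15279 RPM in the heart of the runt and 6319 RPM in that of the normal hatchling. Heart was 262.4-fold and 108.5-fold above tongue, and the interval of the smaller ratio was 81.3 to 148.4. Outside heart no tissue mean exceeded the 72.0 RPM of cloaca, and the highest single library was the same testis library, with 79.8 RPM.

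The last member, miR-208a, was 0 in tongue, 45.2 RPM in the heart of the runt (interval 38.1 to 53.3) and 0 in that of the normal hatchling. It did not reach 100 RPM and belongs to none of the classes. Elsewhere it had 1 read in cloaca and 0 in the other 11 libraries. The 0 of the normal heart allows up to 3 reads there (3.448 RPM), below the interval of the runt's heart.

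**Figure D2:**
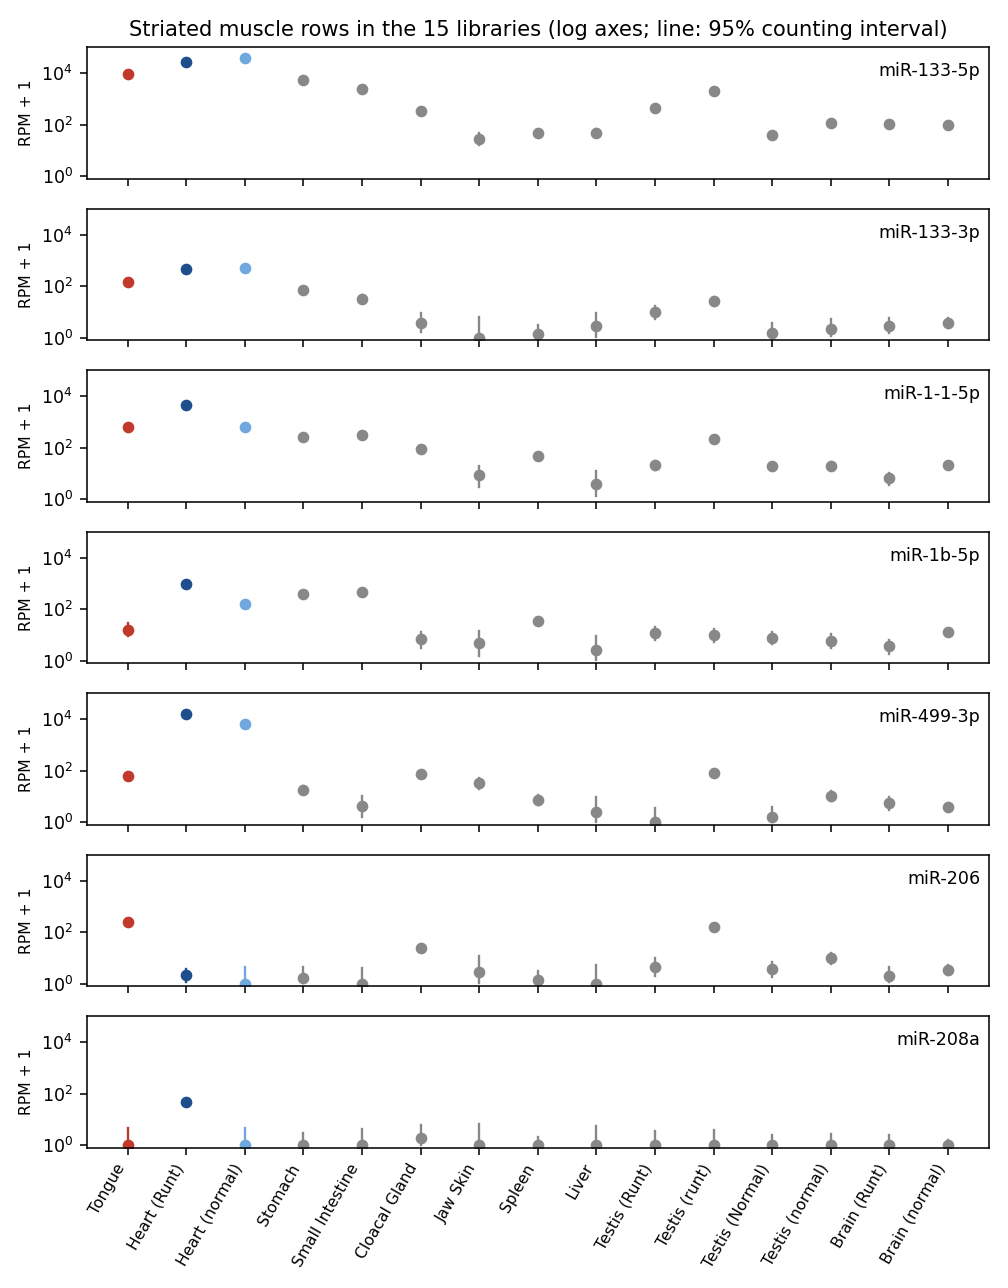
Level of 7 striated muscle miRNAs in each of the 15 libraries (RPM + 1, log axes), with the exact 95% Poisson interval on estimated reads as a vertical line where it is larger than the point, and a line up to 3 reads for a value of 0. Tongue is drawn in red and the hearts in blue, and miR-133-5p is high in all 3, miR-499-3p far higher in the hearts than anywhere else, and miR-206 in tongue and in 1 testis library of a runt.

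Of the 13 miRNAs higher in tongue, those known from epithelia held most of the reads. The 13 summed to 76210 RPM in tongue, 2165 RPM in the heart of the runt and 309.2 RPM in that of the normal hatchling, or 11.5%, 0.405% and 0.0472% of the totals of the 115. In tongue they lay between 215.2 and 24437 RPM (median 2954), in the heart of the runt between 1.06 and 643.0 RPM (median 33.4), and in that of the normal hatchling between 0 and 105.0 RPM (median 8.05). No tongue value overlapped a heart value of the same miRNA. The rule that chose them requires this.

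miR-205a, known from stratified epithelia and skin in mammals, had 24437 RPM in tongue, 21.3 RPM in the heart of the runt (67 reads) and 6.90 RPM in that of the normal hatchling (6 reads). That put tongue 1146-fold above the runt's heart, with a counting interval of 902.0 to 1479. Jaw skin had 116144 RPM and cloaca 76174 RPM, and the other 6 tissues had 4.84 to 66.1 RPM. miR-203-5p, which in mouse epidermis promotes the differentiation of stem cells, had 3913 RPM in tongue, 2.23 RPM in the heart of the runt (7 reads) and 1.15 RPM in that of the normal hatchling (1 read). It too was higher in jaw skin, at 16179 RPM. Both miRNAs were thus high in tongue, jaw skin and cloaca and low in the other tissues.

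The miR-200 family, which in mammals keeps epithelial cells in their state by repressing ZEB factors, was higher in tongue in all 3 of its listed names. miR-200a-5p had 9558 RPM in tongue, 487.3 RPM in the heart of the runt and 56.3 RPM in that of the normal hatchling. miR-200b-5p had 9276 RPM in tongue, 464.7 RPM in the heart of the runt and 50.6 RPM in that of the normal hatchling, and miR-429-3p had 1886, 84.4 and 8.05 RPM in the same libraries. Tongue exceeded the runt's heart 19.6-fold, 20.0-fold and 22.4-fold in these 3. Stomach was higher than tongue in each of them, with 20707 RPM of miR-200a-5p, so unlike miR-205a they were also high in an organ of the gut.

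As a list, the epithelium and skin miRNAs had 6 listed names, of which 5 reached the minimum and all 5 were higher in tongue, against 11.3% of all 115. That count is no separate support, since miR-205a, miR-203-5p and miR-429-3p reached the minimum in tongue only, which favours this direction. The name below the minimum, miR-184-5p, went the other way. It had 25.31 RPM in tongue, 51.25 RPM in the heart of the runt and 34.48 RPM in that of the normal hatchling. The sum over the 6 was 49095 RPM in tongue (7.37% of the listed RPM), 1111 RPM in the heart of the runt (0.207%) and 157.5 RPM in that of the normal hatchling (0.0239%). Jaw skin had 149821 RPM and cloaca 89789 RPM. The tongue library thus held more of the epithelial miRNAs than of the striated muscle ones, and it is called tongue here, not tongue muscle. The part of epithelial cells in each difference was not tested.

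Among the other miRNAs higher in tongue, miR-375 is known from endocrine and secretory cells. Its level was 2954 RPM in tongue, 23.2 RPM in the heart of the runt and 9.19 RPM in that of the normal hatchling, and the ratio to the runt's heart was 127.1 (counting interval 100.7 to 162.8). Small intestine had 3467 RPM and stomach 2179 RPM, whereas jaw skin had 31.5 RPM and cloaca 30.3 RPM. Testis was divided, with 10567 and 12144 RPM in the libraries of runts but 234.0 and 128.4 RPM in those of normal hatchlings. miR-375 was thus low in jaw skin and cloaca, where the epithelial miRNAs above were high. The other name of the endocrine and secretory list, miR-7, did not part the organs and was intermediate. It had 469.6 RPM in tongue, 472.0 RPM in the heart of the runt and 56.3 RPM in that of the normal hatchling.

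miR-183, part of a cluster known from sensory cells, had 618.9 RPM in tongue, 43.9 RPM in the heart of the runt and 2.30 RPM in that of the normal hatchling. Tongue was the highest of the 10 tissues for it, followed by brain with 87.2 RPM. The hearts were about as far apart from each other as tongue was from the nearer one. The rule that chose the 13 favours a high rank of tongue, yet of the 13 only miR-206 and miR-183 were highest there. Its cluster mate miR-96 had 7.59 RPM in tongue, 1.27 RPM in the heart of the runt and 1.15 RPM in that of the normal hatchling, too low to be compared.

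miR-204, which lies in an intron of a TRPM channel gene in mammals, had 15085 RPM in tongue, 643.0 RPM in the heart of the runt and 105.0 RPM in that of the normal hatchling. Jaw skin had 55598 RPM. miR-211, a close relative known from pigment cells, was listed at a constant 0.5 of miR-204 in all 15 libraries and adds no separate measurement. miR-31, abundant in keratinocytes, had 255.7 RPM in tongue, 29.9 RPM in the heart of the runt and 8.05 RPM in that of the normal hatchling, below 5 of the other tissues. miR-155-5p, induced in activated white blood cells, had 215.2 RPM in tongue, 33.4 RPM in the heart of the runt and 3.45 RPM in that of the normal hatchling. The hearts were farther apart than tongue and the nearer heart. Spleen had 2706 RPM of it and cloaca 1686 RPM. The N-numbered miR-N17 had 220.2 RPM in tongue, 9.55 RPM in the heart of the runt and 5.75 RPM in that of the normal hatchling, and was highest in cloaca at 967.7 RPM.

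Most of the 13 were also above both hearts in jaw skin and cloaca. Jaw skin was at least 4-fold above the higher heart library for 10 of them, and cloaca for 9. The 13 were chosen for heart values below tongue, which favours such counts. No such count was made over all 115 or for the other tissues, so these counts single out neither jaw skin nor cloaca. By listed value all 13 were higher in the heart of the runt than in that of the normal hatchling, 7 of them by at least 4-fold. For miR-206 (3 reads against 0), miR-203-5p and miR-N17 the counting intervals of the hearts overlapped, so the order of the hearts is not settled for these. Over all 115 the runt's heart was the higher in 71.3%. The 2 gut epithelium names summed to 6.33 RPM in tongue, 117.8 RPM in the heart of the runt and 3.45 RPM in that of the normal hatchling. The liver miRNA miR-122-5p had 101.3 RPM in tongue, 919.6 RPM in the heart of the runt and 112.6 RPM in that of the normal hatchling. The part of such differences between the hearts in the results was not tested. By listed value every one of the 13 stood farther from tongue in the heart of the normal hatchling.

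**Figure D3:**
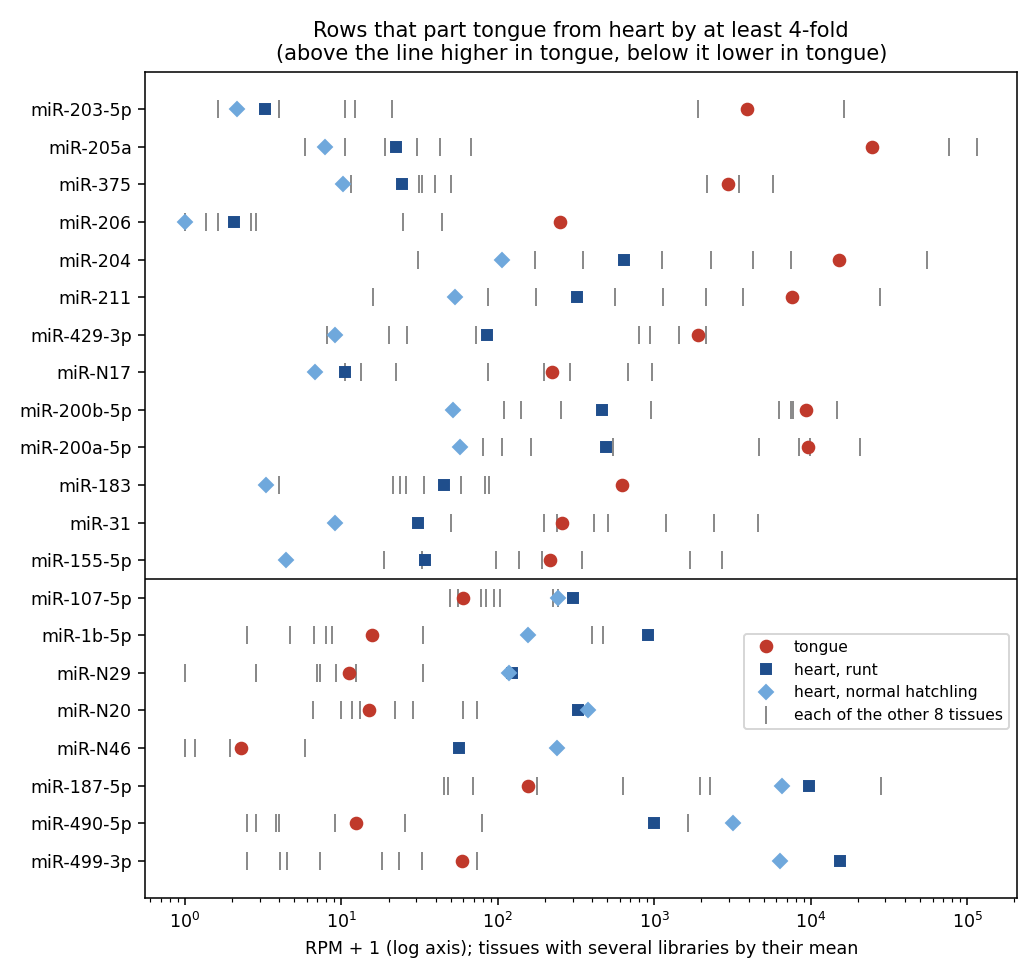
The 13 miRNAs higher and the 8 lower in tongue by at least 4-fold (RPM + 1, log axis), with tongue as a red circle, the heart of the runt as a dark square, that of the normal hatchling as a light diamond, and each of the other 8 tissues as a grey tick. Jaw skin and cloaca are the 2 ticks that lie near or beyond tongue for miR-205a and miR-203-5p, while for miR-499-3p every tick is near or below tongue.

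Lower in tongue were 8 miRNAs, 5 named for a family and 3 N-numbered. They summed to 322.8 RPM in tongue, 27770 RPM in the heart of the runt and 17150 RPM in that of the normal hatchling. The mean of the hearts was the highest of the 10 tissues for 7 of them, but not each heart was, as the values of miR-1b-5p, miR-490-5p and miR-107-5p show. The 8 were chosen for heart values above tongue, which favours this count. No such count is given over all the miRNAs compared, so it does not set the 8 apart. Among the 8 are miR-499-3p and miR-1b-5p, described above.

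miR-490-5p, which lies within the gene of the muscarinic receptor that slows the heart in mammals, had 11.4 RPM in tongue (9 reads), 991.2 RPM in the heart of the runt and 3192 RPM in that of the normal hatchling. Heart was above tongue 87.0-fold (counting interval 45.8 to 190.4) and 280.2-fold. The brain of the runt, with 3091 RPM, lay between the hearts, whereas that of the normal hatchling, with 186.7 RPM, was below both. The other tissues had at most 78.3 RPM. miR-187-5p had 154.4 RPM in tongue, 9792 RPM in the heart of the runt and 6519 RPM in that of the normal hatchling, or 63.4-fold and 42.2-fold more in heart. The hearts were close to each other here, but stomach exceeded them with 28102 RPM. Brain, with a mean of 2282 RPM, and testis, with a mean of 1943 RPM, also lay above tongue. So did cloaca with 632.5 RPM and small intestine with 175.6 RPM.

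The 3 N-numbered names were highest in both hearts. miR-N46 had 1.27 RPM in tongue (1 read), 55.1 RPM in the heart of the runt and 237.9 RPM in that of the normal hatchling, and no other tissue mean exceeded 4.87 RPM. The ratio of the runt's heart to tongue rests on that single read, with a counting interval of 7.71 to 1728. miR-N20 had 13.9 RPM in tongue, 322.8 RPM in the heart of the runt and 374.7 RPM in that of the normal hatchling. miR-N29 had 10.1 RPM in tongue, 122.5 RPM in the heart of the runt and 117.2 RPM in that of the normal hatchling. Heart was 23.2-fold and 26.9-fold above tongue for miR-N20, and 12.1-fold and 11.6-fold for miR-N29, so for both the hearts lay close together. Elsewhere miR-N20 reached 82.2 RPM in a testis library and 72.9 RPM in spleen, and miR-N29 reached 45.0 RPM in the brain of the normal hatchling. Whether these names are true miRNAs was not checked.

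miR-107-5p, which lies in an intron of a pantothenate kinase gene in mammals, just passed the limit, with 58.6 RPM in tongue, 299.3 RPM in the heart of the runt and 239.4 RPM in that of the normal hatchling. The nearer heart was 4.08-fold above tongue, with a counting interval of 2.97 to 5.78. That interval spans the 4-fold limit, so its class is not settled. Brain was near the hearts, with 243.43 RPM in the runt and 235.75 RPM in the normal hatchling, as was liver with 223.65 RPM. Just outside the limit for lower in tongue lay miR-133-3p. On the other side, miR-155-5p was the nearest inside the limit for higher in tongue. miR-193a-3p was the nearest outside it, with 605.0 RPM in tongue, 136.6 RPM in the heart of the runt and 150.6 RPM in that of the normal hatchling. At the minimum level, the last name inside was miR-N31, with 94.9 RPM in tongue, 16.2 RPM in the heart of the runt and 102.3 RPM in that of the normal hatchling. The first outside was miR-1416, with 38.0 RPM in tongue, 94.9 RPM in the heart of the runt and 18.4 RPM in that of the normal hatchling.

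The 58 shared miRNAs held most of the reads of both organs, at 82.6% of the total of the 115 in tongue, 83.6% in the heart of the runt and 86.9% in that of the normal hatchling. In tongue they lay between 101.3 and 111471 RPM (median 1774), in the heart of the runt between 150.1 and 69653 RPM (median 2556), and in that of the normal hatchling between 103.4 and 152843 RPM (median 1033). Sharing was judged against the hearts' own gap, which was wide. Tongue was within 2-fold of both hearts for 25 of the 58, and in 12 the hearts were at least 4-fold apart.

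The most abundant was miR-N444, a name outside the known families, with 111471 RPM in tongue, 45526 RPM in the heart of the runt and 127367 RPM in that of the normal hatchling. miR-30a-5p had 87006 RPM in tongue, 51269 RPM in the heart of the runt and 152843 RPM in that of the normal hatchling. Its family is expressed in most tissues, and here heart had the highest mean and tongue the next. That mean rests on the normal hatchling, since the runt's heart was below tongue and below the brain of the runt, with 86819 RPM. For miR-148-5p, tongue had 73987 RPM, the heart of the runt 46510 RPM and that of the normal hatchling 45476 RPM, so the hearts were nearly equal and tongue 1.59-fold above the nearer one. Then came miR-26a-5p, known to rise as muscle cells differentiate in mammals, with 47465 RPM in tongue, 69653 RPM in the heart of the runt and 26818 RPM in that of the normal hatchling.

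miR-425-5p and miR-181a-5p followed the normal heart more than the runt's. miR-425-5p had 42770 RPM in tongue, 9994 RPM in the heart of the runt and 35731 RPM in that of the normal hatchling. miR-181a-5p, known from lymphocytes and from differentiating muscle, had 35773 RPM in tongue, 16259 RPM in the heart of the runt and 48686 RPM in that of the normal hatchling. miR-92-1-5p, of the miR-17-92 cluster, had 25917 RPM in tongue, 10202 RPM in the heart of the runt and 16387 RPM in that of the normal hatchling. In all 3 the runt's heart was the lowest of the libraries.

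The other order, with the runt's heart highest and tongue near the normal one, was seen for miR-145 and miR-N1. miR-145, known from smooth muscle, had 6275 RPM in tongue, 15606 RPM in the heart of the runt and 3800 RPM in that of the normal hatchling. miR-N1 had 5168 RPM in tongue, 16323 RPM in the heart of the runt and 3826 RPM in that of the normal hatchling. miR-30c-5p, at 14664 RPM in tongue, 18338 RPM in the heart of the runt and 11521 RPM in that of the normal hatchling, and let-7j-5p, at 9199, 14647 and 8749 RPM in the same libraries, lay within 2-fold of both hearts. miR-125b-5p had 10865 RPM in tongue, 17710 RPM in the heart of the runt and 22934 RPM in that of the normal hatchling, and was thus below both. Among the closest matches were miR-24-3p, with 2464 RPM in tongue, 2826 RPM in the heart of the runt and 2782 RPM in that of the normal hatchling, and miR-27-5p, with 3410, 2875 and 2655 RPM. Both belong to clusters found in most tissues and were chosen as examples after their values were seen.

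Tongue and both hearts stood above the middle of the other tissues for few miRNAs. The lowest of the 3 values was at least 4-fold above the median of the other 8 tissues, on the log2(RPM + 1) scale, for 5 of the 115, and these were miR-133-5p, miR-133c-5p, miR-133-3p, miR-1-1-5p and miR-499-3p. With miR-133-5p and miR-133c-5p counted once they were 4. All are striated muscle miRNAs, and miR-1-1-5p is the one that was also within the shared class. This compares with a median, not with every tissue. For miR-499-3p, whose median elsewhere was 11.7 RPM, cloaca and a testis library exceeded tongue, and stomach had 5345 RPM of miR-133-5p and small intestine 309.9 RPM of miR-1-1-5p. The 10 most abundant names took 71.9% of the listed RPM in tongue, 60.3% in the heart of the runt and 81.0% in that of the normal hatchling. Tongue had 5 of its 10 in common with the heart of the runt and 7 with that of the normal hatchling. The tongue names absent from both hearts' 10 were miR-205a, miR-204 and let-7i.

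By list, the let-7 family, whose rise accompanies differentiation in animals, had 9 names at the minimum, of which 7 were shared and 2 intermediate. Among the shared, let-7a-5p was listed at a constant 0.5 of let-7j-5p in all 15 libraries and adds no separate measurement. The median difference of the family was 0.01 on the log2(RPM + 1) scale. All 4 names of the miR-23/27/24 clusters, all 4 of the miR-99, miR-100 and miR-125 names and all 4 of the smooth muscle and mesenchyme list were shared, against 50.4% of all 115. Only a name with at least 100 RPM in all 3 libraries could be shared, and every name of these lists had that level. Of the 115, 69 had it, and 58 of the 69 were shared. These counts thus do not set the lists apart from other abundant names. The smooth muscle list summed to 11287 RPM in tongue, 26713 RPM in the heart of the runt and 7047 RPM in that of the normal hatchling, so tongue lay between the hearts. Endothelial miR-126-5p had 1639 RPM in tongue, 11283 RPM in the heart of the runt and 3049 RPM in that of the normal hatchling. Of the 4 white blood cell names 2 reached the minimum. One was miR-155-5p, and the other was the lymphocyte miRNA miR-150, with 3674 RPM in tongue, 3988 RPM in the heart of the runt and 2261 RPM in that of the normal hatchling. A further list, of other miRNAs linked to cardiac or skeletal muscle, had 5 names. Of these miR-204 and miR-211 were higher in tongue, miR-490-5p was lower, and miR-21-5p and miR-22-3p were shared.

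**Figure D4:**
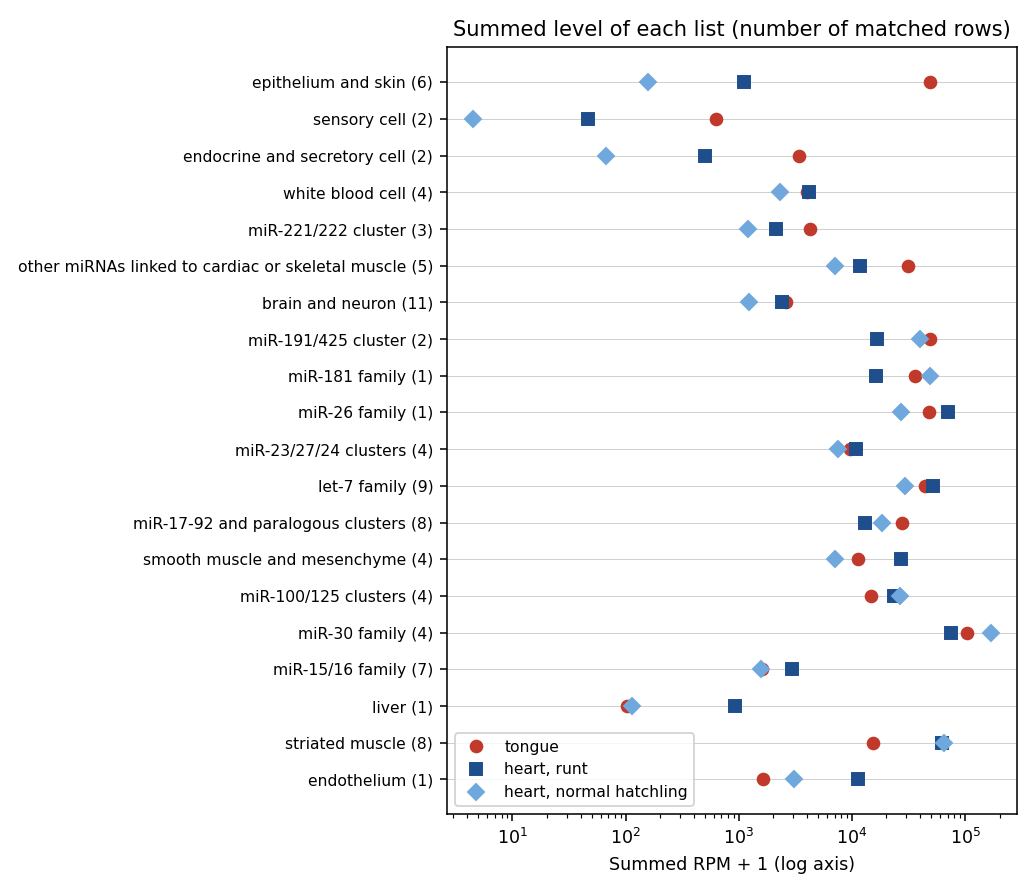
Summed level of each list with at least 1 name at 100 RPM (RPM + 1, log axis; number of matched names in brackets), in tongue (red circle), the heart of the runt (dark square) and that of the normal hatchling (light diamond), ordered by the median difference between tongue and the heart mean. Epithelium and skin, sensory cell and endocrine lists lie at the top, where tongue is far right of both hearts, and the striated muscle sum, which here counts miR-133c-5p as listed, has tongue left of both hearts.

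The 36 intermediate miRNAs were mostly less abundant, with medians of 140.8 RPM in tongue, 156.1 RPM in the heart of the runt and 92.2 RPM in that of the normal hatchling. Tongue was above both hearts in 13, below both in 12 and between them in 11. Among those above, let-7i had 14811 RPM in tongue, 6416 RPM in the heart of the runt and 3057 RPM in that of the normal hatchling. miR-222a, known from vessels and dividing cells, had 2376 RPM in tongue, 645.8 RPM in the heart of the runt and 364.9 RPM in that of the normal hatchling, and miR-132, known from neurons, had 315.1, 160.1 and 31.0 RPM. Among those below, miR-30e-5p had 1757 RPM in tongue, 4351 RPM in the heart of the runt and 3982 RPM in that of the normal hatchling. miR-218-5p, known from motor neurons in mammals, had 17.1 RPM in tongue, 215.8 RPM in the heart of the runt and 50.0 RPM in that of the normal hatchling. These 5 were chosen as examples after their values were seen.

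**Figure D5:**
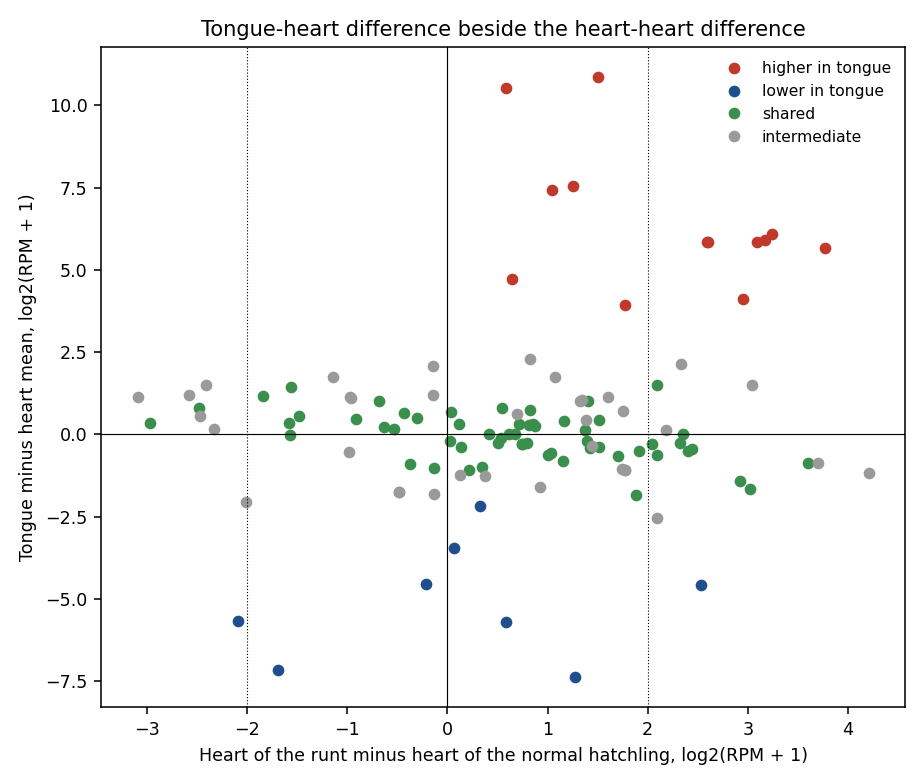
Difference between tongue and the heart mean (vertical axis, log2(RPM + 1)) against the difference between the heart of the runt and that of the normal hatchling (horizontal axis, log2(RPM + 1)) for the 115 miRNAs, with dotted lines at 4-fold between the hearts. By listed value the 13 miRNAs higher in tongue all lie right of 0, where the runt's heart was the higher of the hearts. The shared ones lie between -1.84 and 1.51 on the vertical axis, a range that the class rule limits.

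Across the 115 miRNAs the tongue library correlated more closely with 11 of the 12 libraries of other tissues than with either heart. Pearson's r of log2(RPM + 1) with tongue was highest for cloaca at 0.88 and jaw skin at 0.84, and lowest among the other tissues for the brain of the runt at 0.60, against 0.61 for the heart of the runt and 0.56 for that of the normal hatchling. The hearts correlated with each other at 0.89, and with stomach at 0.82 for the runt and 0.73 for the normal hatchling. These are descriptions over 115 names that are not independent, in which all libraries share the most abundant miRNAs. The names were themselves chosen by their level in tongue or heart. Names high only in heart thus enter and lower r between tongue and heart, while names high only in another tissue are left out. The order of r therefore cannot say which tissue tongue is most like.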

How the data were processed

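Small RNA of 10 tissues was sequenced, with 60 deposited samples in 15 library names and 1 value column for each. The deposited values are RPM, judging by the values. Per the file headers, miRDeep2 (2_0_0_8) quantified them. Bowtie (1.2.0), bcl2fastq (2) and bedtools (2.26.0) are also named, with no stated role, per the submitters' processing notes. The genome build and the total behind RPM are not given in the sources used here. The table holds 1 more value column, which was left out because no sample matches it. Each of the 651 names was used once, from 654 listed rows. Counts of reads were estimated from the smallest step between low values, of which 91.8% to 92.8% in the 3 libraries were whole multiples within 0.1 reads. Values that were not whole multiples, such as those of miR-206 in the runt's heart and miR-1b-5p in tongue, were rounded to whole reads. Values were not treated as counts in any test. Exact 95% Poisson intervals, and exact conditional intervals for ratios, cover counting error only. The classes used a minimum of 100 RPM, a 4-fold difference and a pseudocount of 1 RPM. Ratios are of RPM without it. Named were the 12 miRNAs of largest difference in each direction, the 12 most abundant shared ones and all striated muscle names, and others as said. miRNAs were matched to 26 lists by family number. Members and lists were chosen with earlier results of these data known. Python 3.11.15, pandas 2.3.3, numpy 2.4.6 and scipy 1.17.1 were used.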

Additional observations from a re-analysis of the deposited data

How the results depend on the processing

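The alternatives were minimum levels of 50 and 500 RPM, folds of 3 and 8, a pseudocount of 10 RPM, 2 other scalings, repeated names kept, and leaving out each heart library. Added after the data were seen were miRNAs in a fixed proportion counted once and a stricter meaning of shared. At 500 RPM the count higher in tongue was 9, the count lower 4 and the shared count 38, by construction since fewer miRNAs were counted. With tongue required to be within 2-fold of each heart the shared count was 25. Leaving out each heart library gave 18 to 20 higher in tongue and 9 to 15 lower, 39 to 52 shared, and 6 above the other tissues. The 20 and the 15 come from leaving out the normal hatchling, where all 13 higher and 7 of 8 lower were kept, since miR-N46 then fell below the minimum. The other settings left every count within 1.5 times, with 12 to 15 higher and 7 to 11 lower. Under the pseudocount and scalings, 93 of 111 recomputed differences of named miRNAs moved by less than the SD of the 2 hearts and 18 by more, and no miRNA counted as higher or lower changed sign. Leaving out a heart cannot move a value by that SD and is not counted. Tongue depth limits values of few reads, such as those of miR-N46 and miR-490-5p, and with 1 tongue library the spread between tongues is unknown.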
